A study of Rattus norvegicus with 30 samples.

Results

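The proximal stump of the rat sciatic nerve (SN) was compared at 14 d and at 7 d after the nerve had been cut. The comparison used the 3 SN arrays of 14 d and the 3 SN arrays of 7 d, which were chosen by their titles and are 6 of the 30 arrays of the study. Both groups came from adult male Sprague-Dawley rats with no transgene, and both had lost a 1 cm length of the left sciatic nerve at mid-thigh, just above the point where it divides into the tibial and common peroneal nerves, so that neither group was uninjured. The tissue was a 0.5 cm piece of proximal nerve stump. Total RNA was labelled with Cy3 and hybridised to 1-colour Agilent rat arrays. The other arrays held SN at 0 d, 1 d and 4 d and the lumbar dorsal root ganglia (DRG) at all 5 time points, with 3 arrays in each tissue at each day. Each day had 6 rats. The study's methods call the 3 arrays biological replicates, and how many rats went into each array is not stated in the sources used here. A level below is log2 of the processed intensity minus the 75th percentile of that array, so that a gene at 0 was as bright as the probe at that percentile, and a change is the mean level at 14 d minus the mean level at 7 d, given ± its standard error from limma. The mean level of another day is given ± the SD of its 3 arrays. A gene or probe is said to have risen or fallen where the Benjamini-Hochberg adjusted p was below 0.05, and called where the change was also over 2-fold.

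The proximal stump holds axons that are still joined to their cell bodies, the Schwann cells around them, fibroblasts, blood vessels and the perineurial sheath. After a cut, Schwann cells near the lesion shed their myelin, divide and turn on a repair programme, and macrophages enter from the blood, take up myelin debris and process its lipid. Regrowing axons later come back into contact with Schwann cells, which can then stop dividing and begin to make myelin again, a step that needs large amounts of cholesterol and fatty acid. Perineurial cells rebuild a barrier around the nerve through tight junctions.

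At 14 d the stump expressed less of many genes of cell division and macrophages, and of some matrix proteases and inhibitors, than at 7 d. It expressed more of some genes of myelin and of the perineurial barrier. Of the mitosis genes 21 of 31 fell, as did 13 of 27 DNA replication genes, 11 of 20 macrophage markers, 8 of 16 genes of lipid clearance and 7 of 23 matrix proteases and inhibitors. With slide as a random block (the correlation of arrays on a slide estimated from the data) the same lists counted 6 for mitosis, 2 for DNA replication, none by limma (12 at an unadjusted p below 0.05) for macrophages, 3 for lipid clearance and 5 for matrix proteases and inhibitors. With scan date as a block in a fit over all 30 arrays 3 of the mitosis genes fell, and 25 were lower at an unadjusted p below 0.05. The mitosis list had 30 negative changes of 31 there, with a median of -0.77, against -0.52 in the main fit. In that fit limma put no member of the other lists just named past the test. At an unadjusted p below 0.05 it had 10 DNA replication genes, 5 macrophage markers, 7 lipid clearance genes and 4 matrix protease genes lower. No share over all genes stands beside the unadjusted counts given here and below. Of the myelin list 5 of 24 rose, led by Mag and counting Pou3f1, which the paper calls a negative regulator of myelination. Of the perineurial genes 3 of 5 rose, led by Cldn1. The myelin and perineurial counts became 1 and 2 with slide as a random block. With scan date as a block in a fit over all 30 arrays limma put none of either list past the test, with 5 and 3 at an unadjusted p below 0.05. Single genes were ranked among called genes well above background on all 6 arrays with non-overlapping groups. The largest changes were the fall of the collagenase Mmp13 and the rises of Btnl8, Egfl6 and Klk10, though the probes of Btnl8 disagreed. Skeletal muscle genes had a median change of 2.44, but none was called.

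The tissue label was checked first. The 8 Schwann cell markers measured, among them Sox10, Erbb3 and S100b, were well above background on all 6 arrays, but their median level was 1.67 to 1.91 in the DRG of 7 d and 1.75, 1.74 and 1.88 on the SN arrays of 7 d, so they do not set the tissues apart. The neuronal list does. Its median level was -0.63, -0.84 and -0.49 on the SN arrays of 7 d and -2.16, -1.36 and -1.11 on those of 14 d, against 5.86 to 5.91 and 5.61 to 5.68 in the DRG, where the neuronal cell bodies lie. Between 33079 and 34870 of 41012 non-control probes were well above background on an array. The 3 arrays of 7 d correlated with each other at r = 0.996 to 0.997 over the 33769 probes tested, and the first and second arrays of 14 d at r = 0.994, whereas the third array of 14 d reached r = 0.987 with either of them. That array also stood apart among dim probes. The median level of the dimmest 8442 of the tested probes was -5.24, -5.25 and -5.22 on the 3 arrays of 7 d and -5.47, -5.40 and -4.99 on those of 14 d, the third of which lay highest. The 7 d arrays shared slide 6 and the second of 3 scan dates, the first and second 14 d arrays were on slide 7 and the third was on slide 8, both scanned on the third date. Within SN, day and scan date therefore cannot be told apart. The DRG arrays of 7 d were split over slides 6 and 7, and no other group spans these slides or any pair of scan dates, so a fit over both tissues could set slide 6 against slide 7, or the second date against the third, through that group alone. In that DRG group the later-scanned arrays differed from the earlier one by a median of 0.29 on the log2 scale over the probes called higher in SN and by -0.017 over those called lower.

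**Figure D1:**
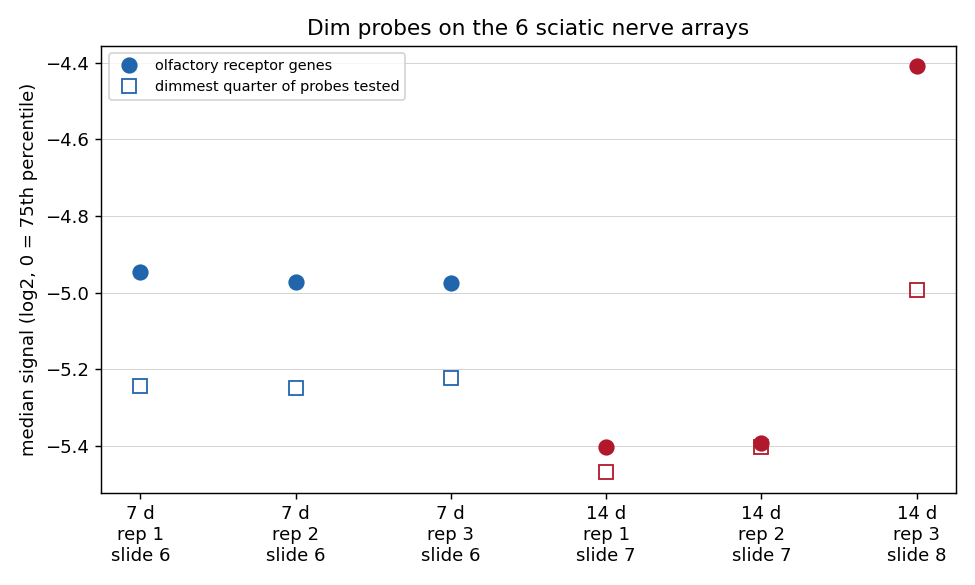
Median level of the dimmest 8442 of the tested probes and of the olfactory receptor genes (505) on each SN array, on the y axis as log2 intensity minus the 75th percentile of the array, with the array, its day and its slide on the x axis, squares for the dimmest probes and filled circles for the receptors. The third array of 14 d lies above the other two of its group for both sets of probes, at -4.99 and -4.41.

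Between 7 d and 14 d 2040 probes rose and 2118 fell. Of the 33769 probes tested, 278 were called higher, which is 0.823%, and 238 were called lower, which is 0.705%. The share of higher probes among those called was 53.9%, and with normexp background correction and quantile normalization it was 43%, from 71 higher and 94 lower calls. All 516 called probes had non-overlapping groups, as did 12031 of all the probes tested. Of those called, 390 were well above background on all 6 arrays, 41 of those called higher were well above background on no array of 7 d, 23 of those called lower on no array of 14 d, and 229 carried no gene symbol. Without the third array of 14 d 1053 probes were called, 262 higher and 791 lower, and 413 of them were among the 516. With slide as a random block 227 probes were called, 222 of them among the 516, and with slide as a block in a fit over all 30 arrays 152 were called, 80 of them among the 516. In this last fit 493 of the 516 kept the same direction. Taking the brightest probe of each named gene left 14222 genes. Of these, 712 genes (5.01%) rose and 1170 (8.23%) fell, with a median change of -0.06. These shares are the background for the main counts of every list below, and not for the unadjusted counts. Of 126 genes named here that rose or fell, 48 also passed the test with slide as a random block.

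Ranked among called genes well above background on all 6 arrays with non-overlapping groups, the largest falls were of matrix breakdown, macrophage and interferon genes. That rule required non-overlap, so for the falls and rises described next it is no added support. Mmp13, collagenase 3, which cuts fibrillar collagen, read -0.81, 0.0046 and 0.15 on the 3 arrays of 7 d and -2.92, -3.12 and -2.61 on those of 14 d. Every 14 d array lay below every 7 d array, by more than the spread within either day. Mmp13 fell by 2.66 ± 0.23 (adjusted p = 8.5e-05), a fold of 6.33. Its level had been -4.39 ± 0.34 at 0 d and -2.83 ± 0.063 at 4 d, so the highest mean level of the 5 days was that of 7 d. The probe lies at chr8:4168554-4168613 of rn4, the rat build on which the array is annotated.

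Mmp9, gelatinase B, which neutrophils and macrophages release, read -1.56, -1.21 and -1.16 at 7 d and -3.44, -2.82 and -3.95 at 14 d. The groups did not overlap, which the rule required, and Mmp9 fell by 2.09 ± 0.27 (adjusted p = 0.0012). Gpr84, a receptor for medium-chain fatty acids on myeloid cells, read -0.35, -0.12 and -0.38 at 7 d and -2.39, -2.58 and -2.30 at 14 d. Its lowest 7 d array stood above its highest 14 d array, and it fell by 2.14 ± 0.18 (adjusted p = 7.5e-05). Wif1, a secreted protein that binds and blocks Wnt ligands, read -0.42, -0.093 and -0.12 at 7 d and -2.10, -2.11 and -2.05 at 14 d. The 3 arrays within each day were close together, and Wif1 fell by 1.88 ± 0.10 (adjusted p = 9.2e-06). Among macrophage genes in this group, Siglec1, the sialic acid receptor CD169, fell by 1.85 ± 0.40 (adjusted p = 0.013), Vsig4, a complement receptor of resident macrophages, fell by 1.76 ± 0.33 (adjusted p = 0.0068), and Cd180, a receptor related to the Toll-like receptors, fell by 1.79 ± 0.21 (adjusted p = 5.5e-04). Ccl12, a chemokine that draws monocytes, fell by 2.44 ± 0.72 (adjusted p = 0.045). The adjusted p with slide as a random block was 0.18 for Ccl12, 0.084 for Siglec1, 0.055 for Vsig4 and 0.0051 for Cd180.

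Several of the largest falls were of genes whose usual place is outside the nerve. Trh encodes thyrotropin-releasing hormone, a hypothalamic peptide, and read -2.05, -1.65 and -2.13 at 7 d and -3.05, -4.87 and -3.40 at 14 d. Its 0 d level was -8.25 ± 0.32, so that it was far above the 0 d nerve at both days, while it fell by 1.83 ± 0.36 (adjusted p = 0.0082) between them. Tyrp1, an enzyme of melanin synthesis in neural crest pigment cells, fell by 1.79 ± 0.29 (adjusted p = 0.0033). Olig3, a transcription factor of the embryonic spinal cord, fell by 1.77 ± 0.50 (adjusted p = 0.038), but its change was 0.29 with scan date as a block in the fit over 30 arrays. Hs3st5, which adds sulfate to heparan chains, read -2.17, -4.83 and -4.72 at 7 d and -5.92, -5.36 and -5.98 at 14 d and fell by 1.85 ± 0.53 (adjusted p = 0.041). The first 7 d array stood far above the others, and without it the change of Hs3st5 was -0.98. Leaving out any 1 array of 14 d took the adjusted p of Hs3st5 above 0.05. The adjusted p with slide as a random block was 0.065 for Trh, 0.033 for Tyrp1, 0.14 for Olig3 and 0.18 for Hs3st5.

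By the same rule, the largest rises outside the olfactory receptors were of Btnl8, Egfl6, Klk10, Kcnj13, Cyp4f4, Asb9, Bmp3 and Kcnj11. Egfl6, a secreted protein with EGF-like repeats that is laid down in basement membrane, read -4.75, -4.96 and -4.66 at 7 d and -1.24, -2.03 and -1.85 at 14 d. All 3 arrays of 14 d were higher than any array of 7 d, and Egfl6 rose by 3.08 ± 0.25 (adjusted p = 5.5e-05), a fold of 8.45. It had stood at -2.77 ± 0.30 at 0 d and -4.62 ± 0.48 at 4 d.

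Kcnj13 encodes Kir7.1, an inwardly rectifying potassium channel of epithelia, and read -1.58, -1.72 and -1.78 at 7 d and 0.26, 0.75 and 1.04 at 14 d. Its 0 d level was 0.43 ± 0.075, so the 14 d mean was close to that of the uncut nerve and the 7 d mean was lower. Kcnj13 rose by 2.38 ± 0.16 (adjusted p = 2.0e-05). Cyp4f4, a cytochrome P450 that hydroxylates fatty acids and leukotrienes, rose by 2.21 ± 0.25 (adjusted p = 5.4e-04) and had a 0 d level of -1.04 ± 0.51. Asb9, a subunit of a ubiquitin ligase, rose by 2.20 ± 0.19 (adjusted p = 8.5e-05), and Bmp3, a bone morphogenetic protein that opposes other members of its family, rose by 2.01 ± 0.18 (adjusted p = 8.5e-05). Kcnj11, the pore of ATP-sensitive potassium channels, rose by 1.67 ± 0.43 (adjusted p = 0.028), with a 0 d level of -0.56 ± 1.20. Its adjusted p was 0.15 with slide as a random block. Without the first or the second array of 14 d it was 0.056 and 0.086. Btnl8, Egfl6, Kcnj13, Cyp4f4, Asb9, Bmp3 and Kcnj11 each had a lower mean at 7 d than at 0 d. Klk10 went the other way, from -8.41 ± 0.35 at 0 d, where no array had it well above background, to a mean of -6.16 at 7 d.

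Klk10, a kallikrein-related secreted protease, read -6.46, -5.78 and -6.24 at 7 d and -3.25, -2.92 and -3.58 at 14 d, and rose by 2.90 ± 0.47 (adjusted p = 0.0036). Its groups did not overlap. Btnl8, a butyrophilin-like membrane protein, read -4.79, -3.86 and -4.75 at 7 d and -1.90, -1.27 and -0.45 at 14 d. By its brighter probe it rose by 3.26 ± 0.38 (adjusted p = 5.5e-04), the largest fold among the called genes at 9.58, whereas its other probe gave -0.13. The 2 probes thus disagree for Btnl8, and with slide as a block over 30 arrays its change was 1.52. With normexp background correction and quantile normalization Klk10 rose by 1.28.

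**Figure D2:**
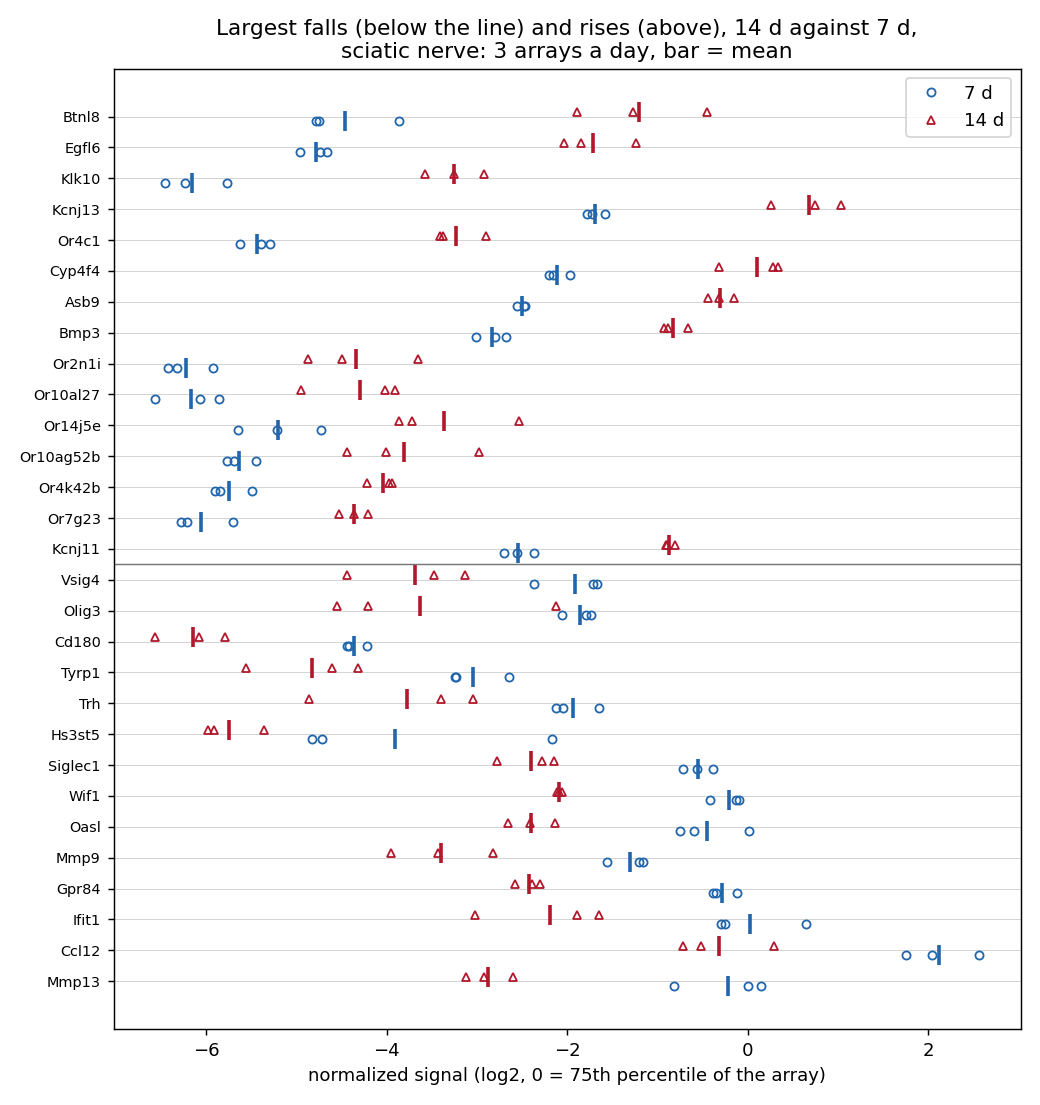
Levels of 14 of the 15 genes with the largest falls and the 15 with the largest rises, on the x axis as log2 intensity minus the 75th percentile of the array, with 1 point for each of the 3 arrays of 7 d and the 3 of 14 d and 1 row a gene. The points of the 2 days do not overlap for any gene shown, which the rule for choosing them required; the changes run from -2.66 for Mmp13 to 3.26 for Btnl8.

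Olfactory receptor genes, whose products detect odorants in the nose, made up 7 of the 15 largest rises by that rule. This family was singled out after its values had been seen. Of 505 such genes tested 29 rose and 13 fell, beside 5.01% and 8.23% of all genes. Of these receptors 24 were called higher and 5 lower, beside 108 and 132 of all 14222 genes. The median change of the receptors was -0.34. Of the 505, 6 rose and 2 fell with slide as a random block. Per array, the median level was -4.95, -4.97 and -4.97 at 7 d and -5.40, -5.39 and -4.41 at 14 d. The first and second arrays of 14 d were below the 7 d arrays, and the third was above them. Without the third array the median change was -0.66 and 133 of these genes fell. Over all 33769 probes tested 3211 fell, which is a count of probes and not of genes. Or4c1, one of the 7, read -5.30, -5.40 and -5.63 at 7 d and -3.38, -2.90 and -3.42 at 14 d, and rose by 2.21 ± 0.46 (adjusted p = 0.011). Its change was 0.57 with slide as a block over 30 arrays and 0.48 with scan date as a block. The slide block gave 0.41 for Or10ag52b, 0.21 for Or14j5e and 1.10 for Or2n1i, against 1.83, 1.83 and 1.89 without it, and 1 receptor was called in that fit. In the DRG arrays of 7 d the family differed by a median of -0.81 between the later and the earlier scan date, and in the fit over 30 arrays with scan date as a block the changes of Or10al27, Or4k42b and Or7g23 were -0.55, -0.29 and -0.66, against 1.87, 1.71 and 1.70 without it. The part of the third array and of the scan date in these values was not tested further.

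Genes of cell division were lower at 14 d. Of 31 mitosis genes tested 21 fell and the others did not pass the test, 30 had a negative change, and the median change was -0.52, beside -0.06 over all genes. The median level of the list was 1.33, 1.49 and 1.45 on the 7 d arrays and 0.90, 0.70 and 0.90 on the 14 d arrays, which did not overlap. It had been -0.83 to -0.19 at 0 d and 1.60 to 1.71 at 4 d, so that the 14 d arrays lay between the uncut nerve and 4 d. Plk1, the kinase that drives entry into and passage through mitosis, read 2.76, 2.81 and 2.75 at 7 d and 1.84, 1.60 and 2.10 at 14 d. Each 14 d array was below each 7 d array, and Plk1 fell by 0.93 ± 0.15 (adjusted p = 0.0037). Ccnb1, cyclin B1, the partner of Cdk1, read 2.42, 2.55 and 2.55 at 7 d and 1.77, 1.44 and 1.67 at 14 d and fell by 0.88 ± 0.14 (adjusted p = 0.0027). Cenpf fell by 0.76 ± 0.18, Ube2c fell by 0.75 ± 0.15 and Ttk fell by 0.72 ± 0.16, which encode a kinetochore protein, a ubiquitin-conjugating enzyme of anaphase and a spindle checkpoint kinase. Cdk1 itself had a change of -0.45 ± 0.14, Mki67, the proliferation antigen Ki-67, of -0.40 ± 0.18 and Top2a, topoisomerase II, of -0.27 ± 0.19, none of which passed the test. With slide as a random block 6 of the list fell, and 9 without array 2 of SN 14 d, 9 without array 2 of SN 7 d and 11 without array 3 of SN 7 d.

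Of 27 DNA replication genes 13 fell and the others did not pass the test, with 26 negative changes and a median of -0.39. Per array the median was 0.31, 0.13 and 0.28 at 7 d and -0.14, -0.29 and 0.14 at 14 d, and the third array of 14 d reached the lowest of the 7 d arrays. The helicase subunits of the MCM complex, which open the replication fork, were among those that fell. Mcm5, the first of them, read -1.43, -1.56 and -1.40 at 7 d and -2.08, -2.33 and -2.23 at 14 d and fell by 0.75 ± 0.15 (adjusted p = 0.008), Mcm4 fell by 0.67 ± 0.11, Mcm7 fell by 0.60 ± 0.14, Mcm2 fell by 0.51 ± 0.11 and Mcm3 fell by 0.49 ± 0.13. Mcm10, which loads the polymerase, fell by 0.75 ± 0.20 (adjusted p = 0.034), and Rrm2, a subunit of ribonucleotide reductase that makes deoxynucleotides, fell by 0.61 ± 0.18 (adjusted p = 0.045). These 13 became 2 with slide as a random block, 4 without array 2 of SN 14 d, 8 without array 1 of SN 7 d, 6 without array 2 of SN 7 d and 4 without array 3 of SN 7 d.

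The promoters of mitosis genes are shown to describe their sequence. The counts cover every gene of the list with a promoter, whether or not it fell, so they do not bear on the change between the days. Promoters were the 250 bases before and the 50 after a single start of each gene, the first listed from RefSeq's annotation of GRCr8. Other starts of a gene were not searched, and 26 of the mitosis genes had a promoter. The letters TTTGAA of the cell cycle homology region, an element of genes expressed late in the cycle, were found on either strand in 20 of the 26 (76.9%), in 1 of 22 DNA replication promoters and in 18.1% of 27457 rat promoters. The letters CCAAT were found in 19 of the 26 (73.1%) and in 37.7% of all promoters. In the 3 promoters below, those of the mitosis genes with the largest changes among those with a sequence, capitals mark both motifs and their reverse complements, and no printed match overlaps another. A match is a description of letters and not a measured binding site. Plk1 is shown from chr1:186147408-186147707, plus strand, Ccnb1 from chr2:33655176-33655475, minus strand and Cenpf from chr13:103760837-103761136, minus strand.
Plk1: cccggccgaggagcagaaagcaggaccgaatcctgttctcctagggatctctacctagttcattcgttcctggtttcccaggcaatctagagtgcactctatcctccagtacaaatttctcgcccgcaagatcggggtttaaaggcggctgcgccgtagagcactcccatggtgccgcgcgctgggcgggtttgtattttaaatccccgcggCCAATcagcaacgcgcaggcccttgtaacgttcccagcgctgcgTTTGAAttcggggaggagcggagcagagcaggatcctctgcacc
Ccnb1: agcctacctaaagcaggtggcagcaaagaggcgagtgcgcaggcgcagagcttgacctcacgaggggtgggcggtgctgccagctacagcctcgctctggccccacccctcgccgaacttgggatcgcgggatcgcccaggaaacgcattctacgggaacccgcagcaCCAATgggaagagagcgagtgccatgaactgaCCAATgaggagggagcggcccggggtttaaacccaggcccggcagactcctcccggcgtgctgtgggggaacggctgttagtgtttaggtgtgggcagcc
Cenpf: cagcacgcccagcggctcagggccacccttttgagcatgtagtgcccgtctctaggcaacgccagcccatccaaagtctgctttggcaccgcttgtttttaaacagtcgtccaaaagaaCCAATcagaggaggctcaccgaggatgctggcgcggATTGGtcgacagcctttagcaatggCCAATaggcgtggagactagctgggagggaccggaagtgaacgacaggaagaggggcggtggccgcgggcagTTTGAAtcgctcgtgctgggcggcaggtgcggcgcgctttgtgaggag
Plk1 held 1 CCAAT and 1 TTTGAA, Ccnb1 2 CCAAT and no TTTGAA, and Cenpf 3 CCAAT, 1 of them on the other strand, and 1 TTTGAA.

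Macrophage genes and genes of lipid clearance were lower at 14 d. Of 20 macrophage markers 11 fell, and all 20 had a negative change, with a median of -0.52. The median level of the list was 4.64, 4.61 and 4.45 at 7 d and 4.15, 3.65 and 3.90 at 14 d with no overlap, and 2.55 to 2.66 in the uncut nerve, so all 14 d arrays still lay above the 0 d arrays. Cd68, a lysosomal glycoprotein of macrophages, read 5.22, 5.32 and 4.88 at 7 d and 4.36, 4.00 and 4.21 at 14 d and fell by 0.95 ± 0.18 (adjusted p = 0.0068). Cx3cr1, the fractalkine receptor, fell by 0.93 ± 0.20 (adjusted p = 0.012). C1qa, a chain of complement C1q, fell by 0.74 ± 0.14 (adjusted p = 0.0077), Cd14, the lipopolysaccharide co-receptor, fell by 0.70 ± 0.17 (adjusted p = 0.021), and Cd163, the haemoglobin scavenger receptor, fell by 0.66 ± 0.19 (adjusted p = 0.042). Itgam, the integrin CD11b, had a change of -0.29 ± 0.44. In whole tissue, fewer cells of a type and less RNA per cell cannot be told apart, here and in the lists that follow. When slide was a random block, none by limma (12 at an unadjusted p below 0.05) fell, and 3 without array 2 of SN 14 d, 3 without array 1 of SN 7 d, 3 without array 2 of SN 7 d and 4 without array 3 of SN 7 d.

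Of 16 genes of lipid uptake, efflux and lysosomal breakdown 8 fell and the others did not pass the test, with 15 negative changes and a median of -0.40. The list's median level was 2.298, 1.987 and 1.932 at 7 d and 1.633, 1.526 and 1.647 at 14 d. It was 1.695 to 1.757 at 0 d, so all 14 d arrays lay below the uncut nerve, unlike for the macrophage list. Which cells expressed these genes was not measured. Msr1, a scavenger receptor for modified lipoprotein, read 0.79, 0.55 and 0.65 at 7 d and -0.92, -0.86 and -0.62 at 14 d. The days did not overlap, and Msr1 fell by 1.47 ± 0.12 (adjusted p = 5.5e-05). Apoc1, an apolipoprotein that lipid-laden macrophages make, read 2.58, 2.13 and 1.95 at 7 d and 0.68, 0.99 and 1.04 at 14 d and fell by 1.32 ± 0.20 (adjusted p = 0.0024). Its level was -2.39 ± 0.32 at 0 d and 2.98 ± 0.078 at 4 d. Gpnmb, a glycoprotein of lysosome-rich phagocytes, fell by 0.91 ± 0.18 (adjusted p = 0.0082), Trem2, a lipid-sensing receptor, fell by 0.90 ± 0.12 (adjusted p = 0.0011), and Nceh1, which hydrolyses cholesterol esters, fell by 0.56 ± 0.16 (adjusted p = 0.038). Abca1, which exports cholesterol to lipoproteins, fell by 0.47 ± 0.13 (adjusted p = 0.042). Apoe, the apolipoprotein that carries cholesterol back to regrowing axons, had a change of -0.090 ± 0.10, and Lpl, lipoprotein lipase, of -0.091 ± 0.082. The lipid clearance count was 3 with slide as a random block, 5 without array 1 of SN 14 d, 4 without array 2 of SN 14 d, 4 without array 1 of SN 7 d and 4 without array 2 of SN 7 d.

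**Figure D3:**
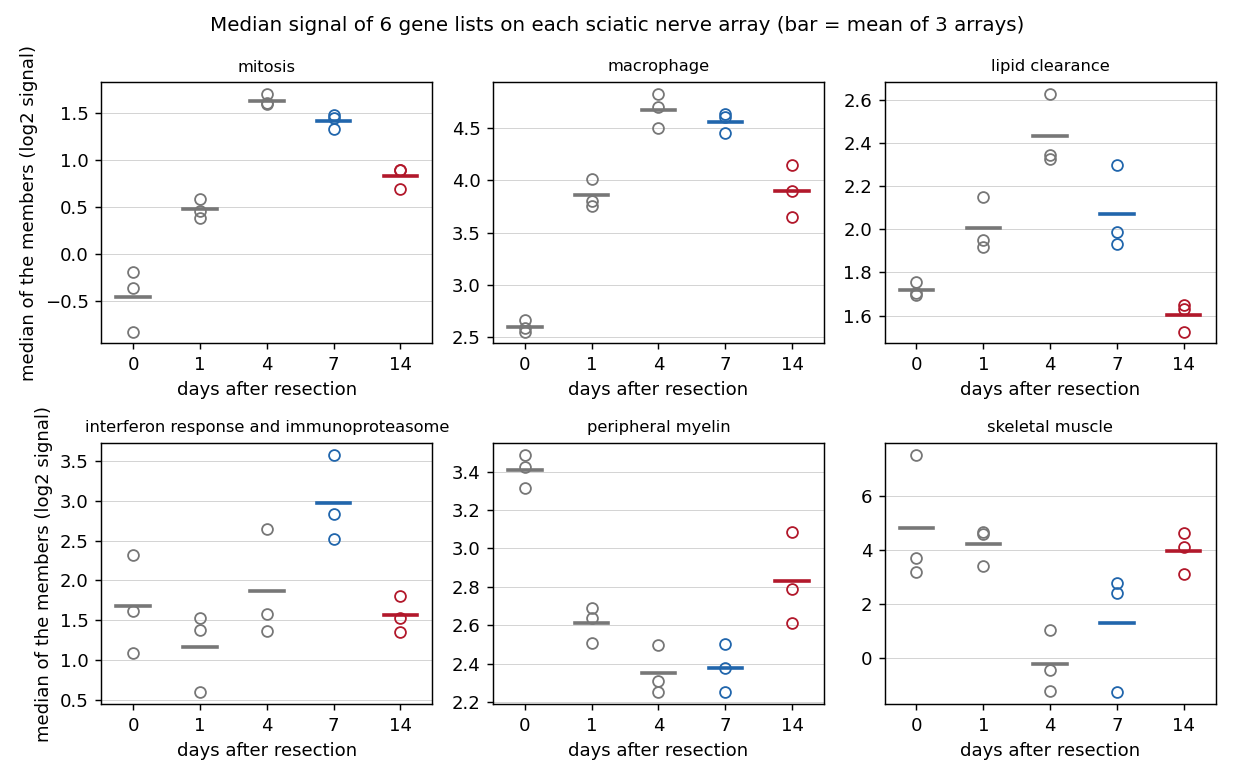
Median level of 6 gene lists on each SN array at 0 d, 1 d, 4 d, 7 d and 14 d, on the y axis as log2 intensity minus the 75th percentile of the array, with 1 point an array and a bar at the mean of the 3 arrays of a day. The mitosis, macrophage, lipid clearance and interferon medians are lower on every 14 d array than on every 7 d array, the myelin median is higher, and the skeletal muscle median spans -1.26 to 2.78 within 7 d.

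All 23 genes of the interferon response and immunoproteasome had a negative change and the median was -1.13, the lowest median of the lists, but 3 of them passed the test. Per array the median level was 2.83, 3.58 and 2.51 at 7 d and 1.53, 1.35 and 1.80 at 14 d. The days did not overlap, and the 7 d arrays spread over more than 1 unit on this log2 scale. Ifit1, which binds viral RNA that lacks a host cap, read -0.25, 0.64 and -0.30 at 7 d and -1.89, -3.02 and -1.65 at 14 d and fell by 2.22 ± 0.49 (adjusted p = 0.015). Stat2, a transcription factor of the type I interferon signal, fell by 1.13 ± 0.22 (adjusted p = 0.0083), and Rig1, the RNA sensor also called Ddx58, fell by 1.33 ± 0.37 (adjusted p = 0.038). Oasl, a relative of the oligoadenylate synthetases that was not on the list, fell by 1.96 ± 0.56 (adjusted p = 0.041). For Oasl the adjusted p with slide as a random block was 0.17. Ifit3 read -0.44, 0.36 and -0.61 at 7 d and -2.84, -2.65 and -2.04 at 14 d, a change of -2.28 ± 0.78 (adjusted p = 0.078), and Ifit2 had a change of -1.17 ± 0.44. For Ifit3 the second array of 7 d was the highest of the 3. At an unadjusted p below 0.05 19 of the list were lower, and 9 without the second array of 7 d, counts with no share over all genes beside them. With slide as a random block none by limma (11 at an unadjusted p below 0.05) of the list fell, and 1 without array 2 of SN 14 d and 1 without array 2 of SN 7 d. The DRG arrays of 7 d differed between the later and the earlier scan date by a median of 0.28 for this list.

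The interferon-stimulated response element, searched as GAAANNGAAA on both strands, was found in 12 of the 16 promoters of this list with a sequence (75%) and in 3.77% of all 27457 rat promoters. It was found in no promoter of the mitosis or the DNA replication list. The promoters of the interferon list were also counted whether or not the gene fell. A pair of the promoters is shown because they carry the motif and belong to the members with the largest changes, chosen after their values had been seen, Ifit3 from chr1:241527076-241527375, plus strand and Rsad2, which encodes the antiviral protein viperin, from chr6:48788071-48788370, minus strand, with the motif in capitals as it reads on the gene's strand.
Ifit3: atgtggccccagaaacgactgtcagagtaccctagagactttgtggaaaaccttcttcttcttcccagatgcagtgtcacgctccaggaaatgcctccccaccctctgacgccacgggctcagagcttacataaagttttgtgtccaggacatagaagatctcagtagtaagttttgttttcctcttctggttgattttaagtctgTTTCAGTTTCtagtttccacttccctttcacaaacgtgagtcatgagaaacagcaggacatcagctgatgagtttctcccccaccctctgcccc
Rsad2: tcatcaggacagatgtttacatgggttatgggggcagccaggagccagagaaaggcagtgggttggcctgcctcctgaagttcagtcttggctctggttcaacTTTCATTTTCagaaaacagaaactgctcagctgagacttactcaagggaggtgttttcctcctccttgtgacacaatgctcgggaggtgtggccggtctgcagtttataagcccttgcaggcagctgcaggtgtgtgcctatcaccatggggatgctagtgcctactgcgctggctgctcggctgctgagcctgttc
Both matches read as the reverse complement of the letters searched. Mx1, an interferon-induced GTPase of the list, had no match in its window.

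Of 29 inflammatory cytokines and chemokines 1 rose and 5 fell, with a median of -0.43. Ccl5, also called RANTES, which draws T cells and monocytes, was the one that rose. It read 1.17, 1.40 and 1.12 at 7 d and 2.97, 1.65 and 2.46 at 14 d, with -2.30 ± 0.23 at 0 d, and rose by 1.13 ± 0.27 (adjusted p = 0.019), with an adjusted p of 0.11 with slide as a random block. Il1a, interleukin 1 alpha, read -5.80, -5.71 and -6.02 at 7 d and -8.29, -8.11 and -6.23 at 14 d, where the third array lay nearest to the 7 d arrays, and fell by 1.70 ± 0.41 (adjusted p = 0.021), but its change was -0.19 with normexp and quantile normalization. Il6, the cytokine that induces acute phase genes, fell by 1.25 ± 0.26 (adjusted p = 0.012), and Il18, a partner of interleukin 12 in T cell activation, fell by 0.79 ± 0.17 (adjusted p = 0.012). Cxcl14, a chemokine of connective tissue, fell by 0.69 ± 0.13 (adjusted p = 0.0072), and Tgfb1, which limits inflammation and drives scarring, fell by 0.62 ± 0.12 (adjusted p = 0.0075). Il1b had a change of -0.29 ± 0.34, and the chemokine Ccl2, which recruits monocytes, of -0.65 ± 0.25, neither of which passed the test. These 5 became 1 with slide as a random block, 3 without array 2 of SN 14 d and 2 without array 2 of SN 7 d.

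Of 20 T and NK cell markers 3 fell and the others did not pass the test, and with slide as a random block 1 fell. Cd8a, one chain of the CD8 co-receptor, read 0.59, 0.63 and 0.23 at 7 d and -0.77, -1.27 and -0.86 at 14 d, with -5.75 ± 0.24 at 0 d. The 14 d arrays were all below the 7 d arrays and above the uncut nerve, and Cd8a fell by 1.45 ± 0.22 (adjusted p = 0.0023). Cd8b, the other chain, fell by 1.10 ± 0.21 (adjusted p = 0.0076), though its change was -0.090 with slide as a block over 30 arrays, and Ccr7, the receptor that guides T cells and dendritic cells to lymph nodes, fell by 0.89 ± 0.20 (adjusted p = 0.016). The chains of CD3, which every T cell carries, did not pass the test, with changes of 0.036 ± 0.20 for Cd3d, -0.27 ± 0.27 for Cd3e and 0.26 ± 0.22 for Cd3g. Among markers of other blood cells, Blnk, an adaptor of the B cell receptor that macrophages also express, fell by 0.72 ± 0.13 while Cd79b, a chain of that receptor, had a change of 0.39 ± 0.31. Csf3r, the granulocyte colony-stimulating factor receptor, fell by 0.87 ± 0.16, whereas the neutrophil proteins S100a8 and S100a9 had changes of 0.50 ± 0.23 and 0.0062 ± 0.31. Tpsb2, a mast cell tryptase, fell by 0.49 ± 0.13. For Blnk, Csf3r and Tpsb2 the adjusted p was 0.0501, 0.053 and 0.15 with slide as a random block. Of 7 genes of MHC class II presentation, with a median of 0.14, limma called none past the test, with 2 at an unadjusted p below 0.05 and 1 by the methods' t-test without its 2-fold limit.

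Genes that cut, crosslink or remodel the matrix were among those that fell. Of 23 matrix proteases and inhibitors 7 fell, with a median of -0.39, led by Mmp13 and Mmp9 above. Plaur, the urokinase receptor, fell by 0.84 ± 0.15 (adjusted p = 0.0061), Timp1, an inhibitor of these metalloproteinases, fell by 0.69 ± 0.096 (adjusted p = 0.0016), and Mmp19, a secreted metalloproteinase, fell by 0.66 ± 0.16 (adjusted p = 0.019). Mmp2, gelatinase A, had a change of -0.099 ± 0.11 and Mmp3, stromelysin, of -0.46 ± 0.31. Of 29 genes of the fibrillar and interstitial matrix 5 fell and the others did not pass the test, with a median of -0.13. Tnc, tenascin C, a matrix protein of injured tissue, read 3.32, 3.75 and 3.91 at 7 d and 2.95, 1.86 and 2.37 at 14 d and fell by 1.27 ± 0.26 (adjusted p = 0.01). Spp1, osteopontin, fell by 0.86 ± 0.12 (adjusted p = 0.0016), and Lox and Loxl2, oxidases that crosslink collagen, fell by 0.62 ± 0.088 and 0.54 ± 0.14. Col8a1, a short-chain collagen, fell by 0.77 ± 0.14. The chains of the main fibrillar collagens Col1a1, Col1a2 and Col3a1 had changes of 0.080 ± 0.10, 0.056 ± 0.093 and 0.11 ± 0.072 and did not pass the test. When slide was a random block, 3 fell, and 8 without array 1 of SN 14 d.

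Of 13 basement membrane genes 2 rose and 1 fell. The rises became none by limma (2 at an unadjusted p below 0.05) and the falls 1 with slide as a random block. Lamb2, the laminin beta 2 chain, rose by 0.36 ± 0.097 and Nid2, nidogen 2, by 0.45 ± 0.093, whereas Lamc1, the laminin gamma 1 chain, fell by 0.50 ± 0.084. Col4a1 and Col4a2, the chains of the network collagen, had changes of -0.14 ± 0.11 and -0.25 ± 0.13. For Nid2 the 7 d arrays read 3.54, 3.52 and 3.53 and the 14 d arrays 3.89, 4.15 and 3.91, without overlap.

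Among the genes of peripheral myelin 5 of 24 rose and the others did not pass the test, with 20 positive changes and a median of 0.20. The median level was 2.50, 2.25 and 2.38 at 7 d, 2.61, 3.09 and 2.79 at 14 d and 3.31 to 3.49 at 0 d, so the 14 d arrays were above the 7 d arrays and below the uncut nerve. Mag, myelin-associated glycoprotein, which lies on the Schwann cell membrane that faces the axon, read 1.86, 1.59 and 1.71 at 7 d and 2.67, 3.05 and 2.60 at 14 d. All 14 d arrays were higher, near the 0 d level of 2.79 ± 0.31, and Mag rose by 1.05 ± 0.18 (adjusted p = 0.0046). Prx, periaxin, which anchors the myelin sheath to the basal lamina, rose by 0.47 ± 0.13 (adjusted p = 0.039). Pou3f1, the transcription factor of the promyelinating stage also called Oct6 or SCIP, read 1.58, 1.52 and 1.53 at 7 d and 1.81, 2.12 and 1.97 at 14 d and rose by 0.42 ± 0.098 (adjusted p = 0.018). Its level was -0.32 ± 0.18 at 0 d and 0.27 ± 0.063 at 4 d, lower than at either later day. The paper calls Pou3f1 a negative regulator of myelination, and its 14 d level lay further from the uncut nerve than its 7 d level. Mpdz, a scaffold protein with many PDZ domains, rose by 0.41 ± 0.11 (adjusted p = 0.036). Mbp, myelin basic protein, had a change of 0.38 ± 0.16 and Pmp22, a membrane protein of compact myelin, of 0.14 ± 0.10, and neither passed the test. The peripheral myelin count was 1 with slide as a random block, 1 without array 2 of SN 14 d, 3 without array 1 of SN 7 d, 1 without array 2 of SN 7 d and 1 without array 3 of SN 7 d.

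Few of the enzymes that supply myelin lipid passed the test. Of 24 cholesterol synthesis genes 1 rose, 20 had a positive change, and the median was 0.16. The rises numbered none by limma (4 at an unadjusted p below 0.05) with slide as a random block, and without the second array of 14 d the median was 0.080, 10 changes were negative and none passed the test in limma, with 3 at an unadjusted p below 0.05. Hmgcs1, with 0.44 ± 0.13, and Mvk, with 0.27 ± 0.11, were steps of the pathway that did not pass the test. The list's median level was 1.42, 1.43 and 1.40 at 7 d, 1.68, 1.96 and 1.65 at 14 d and 3.23 to 3.75 at 0 d, so each 14 d array was above each 7 d array and more than 1 unit of log2 below each array of the uncut nerve. Of 15 fatty acid genes 2 rose, and 1 with slide as a random block. Elovl6, which lengthens saturated fatty acids, rose by 0.62 ± 0.13 (adjusted p = 0.011), and had a level of 5.65 ± 0.095 at 0 d against 3.24 ± 0.23 at 14 d. Acaca, acetyl-CoA carboxylase, rose by 0.50 ± 0.092 (adjusted p = 0.006) by its brighter probe and gave -0.21 by its other one. Fasn, fatty acid synthase, had a change of 0.22 ± 0.10 and Acly, ATP citrate lyase, of -0.034 ± 0.088.

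Of 22 genes of the repair Schwann cell 1 rose and 5 fell, with a median of -0.19. Gfra3, the receptor for artemin, was the one that rose, and it read 1.51, 1.61 and 1.71 at 7 d and 2.61, 2.03 and 2.25 at 14 d. Its level had been -2.08 ± 0.071 at 0 d and -1.30 ± 0.072 at 4 d, and it rose by 0.68 ± 0.12 (adjusted p = 0.0048). The adhesion molecules Ncam1 and Cdh2, which immature and non-myelinating Schwann cells carry, fell by 1.06 ± 0.14 and 0.98 ± 0.11. For Cdh2, N-cadherin, the arrays read -0.089, 0.14 and 0.14 at 7 d and -0.79, -1.07 and -0.90 at 14 d, without overlap. Gfap and Nes, intermediate filament proteins of immature Schwann cells, fell by 0.88 ± 0.21 and 0.39 ± 0.095. Jun, the transcription factor that sets off the repair programme, had a change of 0.13 ± 0.12, Ngfr, the low-affinity neurotrophin receptor p75, of -0.30 ± 0.11, and Shh, sonic hedgehog, of -0.56 ± 0.38, none of which passed the test. With slide as a random block 2 of the list fell, and 2 without array 1 of SN 14 d, 2 without array 1 of SN 7 d, 2 without array 2 of SN 7 d and 2 without array 3 of SN 7 d.

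Of 23 growth factors 8 fell and the others did not pass the test, with a median of -0.25. Nrg1, neuregulin 1, the signal for Schwann cell survival and myelination, read -1.90, -1.85 and -1.57 at 7 d and -2.25, -2.74 and -2.76 at 14 d and fell by 0.81 ± 0.19 (adjusted p = 0.019). Hgf, hepatocyte growth factor, fell by 0.76 ± 0.22, Fgf2 by 0.65 ± 0.13, the urocortin Ucn2 by 0.74 ± 0.16, Areg, a ligand of the EGF receptor, by 0.58 ± 0.17, and Ntf3, neurotrophin 3, by 0.55 ± 0.13. The neurotrophin Bdnf had a change of -0.83 ± 0.26, and Gdnf, the glial cell line-derived factor, of -0.24 ± 0.13. These 8 became 1 with slide as a random block, 4 without array 2 of SN 14 d, 3 without array 1 of SN 7 d, 3 without array 2 of SN 7 d and 3 without array 3 of SN 7 d. Of 31 axon guidance genes 4 rose and 1 fell, with a median of -0.12. Ntn1, netrin 1, rose by 0.82 ± 0.22 (adjusted p = 0.033), the semaphorin receptor Nrp2 rose by 0.78 ± 0.13 (adjusted p = 0.0037), the ephrin receptor Ephb1 rose by 0.79 ± 0.15 (adjusted p = 0.0079) and the plexin Plxnb3 rose by 0.56 ± 0.14 (adjusted p = 0.021). The Ephb1 arrays read -1.56, -1.62 and -1.65 at 7 d and -1.23, -0.66 and -0.56 at 14 d, so the days did not overlap. The transmembrane semaphorin Sema6a fell by 0.55 ± 0.11 (adjusted p = 0.0091), and Sema3a, a secreted repellent, had a change of -0.80 ± 0.28. When slide was a random block, 2 rose, and 2 without array 2 of SN 7 d and 2 without array 3 of SN 7 d.

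Of 5 perineurial markers tested 3 rose, with a median of 0.63, led by Cldn1, claudin 1, a tight junction protein of the perineurial barrier. Cldn1 was the middle of the 5 levels on all 6 arrays, so the list's median level is that of Cldn1. It read 2.31, 2.22 and 2.24 at 7 d and 2.99, 3.11 and 3.44 at 14 d, with no overlap, and rose by 0.92 ± 0.12 (adjusted p = 0.0012). The list's median had been 1.34 to 1.69 at 1 d and 2.62 to 2.87 at 0 d. Itgb4, an integrin that binds laminin, rose by 0.65 ± 0.13 (adjusted p = 0.0097), and Slc2a1, the glucose transporter Glut1, read 3.05, 2.92 and 2.97 at 7 d and 3.42, 3.73 and 3.65 at 14 d and rose by 0.62 ± 0.091 (adjusted p = 0.0023). Itgb4 is also made by Schwann cells and Slc2a1 by other barrier cells. The perineurium count was 2 with slide as a random block.

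Slc2a1 was also one of 3 genes that rose among 17 of hypoxia and glycolysis, with Ankrd37 (0.64 ± 0.11), a target of the hypoxia-inducible factors, and Bnip3 (0.43 ± 0.11), which marks mitochondria for removal. In the same list Hk2, hexokinase 2, fell by 0.50 ± 0.15 and Pfkl, a phosphofructokinase, by 0.32 ± 0.088. Of the list 2 rose and none by limma (2 at an unadjusted p below 0.05) fell with slide as a random block. Among vessel genes, Eng, endoglin, fell by 0.63 ± 0.14 and Flt1, a receptor of vascular endothelial growth factor, by 0.47 ± 0.14 by its brighter probe, its other probe giving 0.12, whereas Pecam1, Kdr and Cdh5 had changes of -0.24 ± 0.13, -0.34 ± 0.16 and 0.94 ± 0.31. Tagln, an actin-binding protein of smooth muscle, fell by 0.76 ± 0.13, and Cspg4, the proteoglycan NG2 of pericytes, rose by 0.32 ± 0.077. Of the fibroblast markers Pdgfra, a receptor of platelet-derived growth factor, fell by 0.42 ± 0.079, Mfap5, a microfibril protein, rose by 0.42 ± 0.088, and Dcn and Lum, small proteoglycans, had changes of -0.061 ± 0.11 and 0.076 ± 0.12. When slide was a random block, the adjusted p was 0.086 for Eng, 0.19 for Flt1, 0.039 for Tagln, 0.11 for Cspg4, 0.049 for Pdgfra and 0.076 for Mfap5.

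Markers of tissue next to the nerve were measured too. All 12 skeletal muscle genes had a positive change, with a median of 2.44, but limma put none of them past the test, with 6 at an unadjusted p below 0.05 and 1 by the methods' t-test without its 2-fold limit. Without the first 7 d array the median change was 1.32. The median level was -1.26, 2.78 and 2.40 on the 7 d arrays and 4.13, 3.11 and 4.66 on the 14 d arrays, so that the first 7 d array was far below the other 5. The 0 d arrays spanned 3.20 to 7.53. Acta1, skeletal actin, read -0.74, 2.69 and 2.35 at 7 d and 4.21, 2.97 and 4.36 at 14 d. The part of muscle RNA in the other results was not tested. Of 8 adipocyte genes, with a median of 0.022, limma put none past the test, with 0 at an unadjusted p below 0.05 and 0 by the methods' t-test without that limit. Of 11 neuronal genes, whose RNA in a nerve lies in axons and sparse cell bodies, Uchl1, an abundant neuronal hydrolase, fell by 0.94 ± 0.15 (adjusted p = 0.003) and Tubb3, a neuronal tubulin, fell by 0.43 ± 0.13 (adjusted p = 0.048), and 1 of the list fell with slide as a random block. The neurofilaments Nefl, Nefm and Nefh had changes of -0.98 ± 0.40, -0.99 ± 0.43 and -1.40 ± 0.47. Hbb, beta globin, had a change of 0.16 ± 0.63.

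Of 15 genes of the circadian clock 2 rose and 1 fell. These became 1 and none by limma (1 at an unadjusted p below 0.05) with slide as a random block, where Per1 had an adjusted p of 0.19. Per1, a repressor arm component of the clock that light and steroid hormones also induce, read -1.94, -2.10 and -2.22 at 7 d and -0.70, -0.080 and -0.55 at 14 d and rose by 1.64 ± 0.47 (adjusted p = 0.042). Cry1, another repressor, rose by 0.56 ± 0.095 (adjusted p = 0.0042), and Nr1d1, the nuclear receptor REV-ERB alpha, read -0.14, -0.18 and -0.18 at 7 d and -1.35, -1.13 and -1.19 at 14 d and fell by 1.05 ± 0.21 (adjusted p = 0.0082). In the DRG, Per1 was -2.57 at 7 d and -1.06 at 14 d and Nr1d1 -1.23 and -2.60. The hour at which tissue was taken is not given in the sources used here. Bmal1 and Clock, the activators, were measured and had changes of 0.21 ± 0.21 and 0.13 ± 0.17. Of 17 immediate early genes 1, Ier3, fell, by 0.56 ± 0.13 (adjusted p = 0.096 with slide as a random block), and Fos and Junb had changes of -0.41 ± 0.30 and -0.44 ± 0.17.

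**Figure D4:**
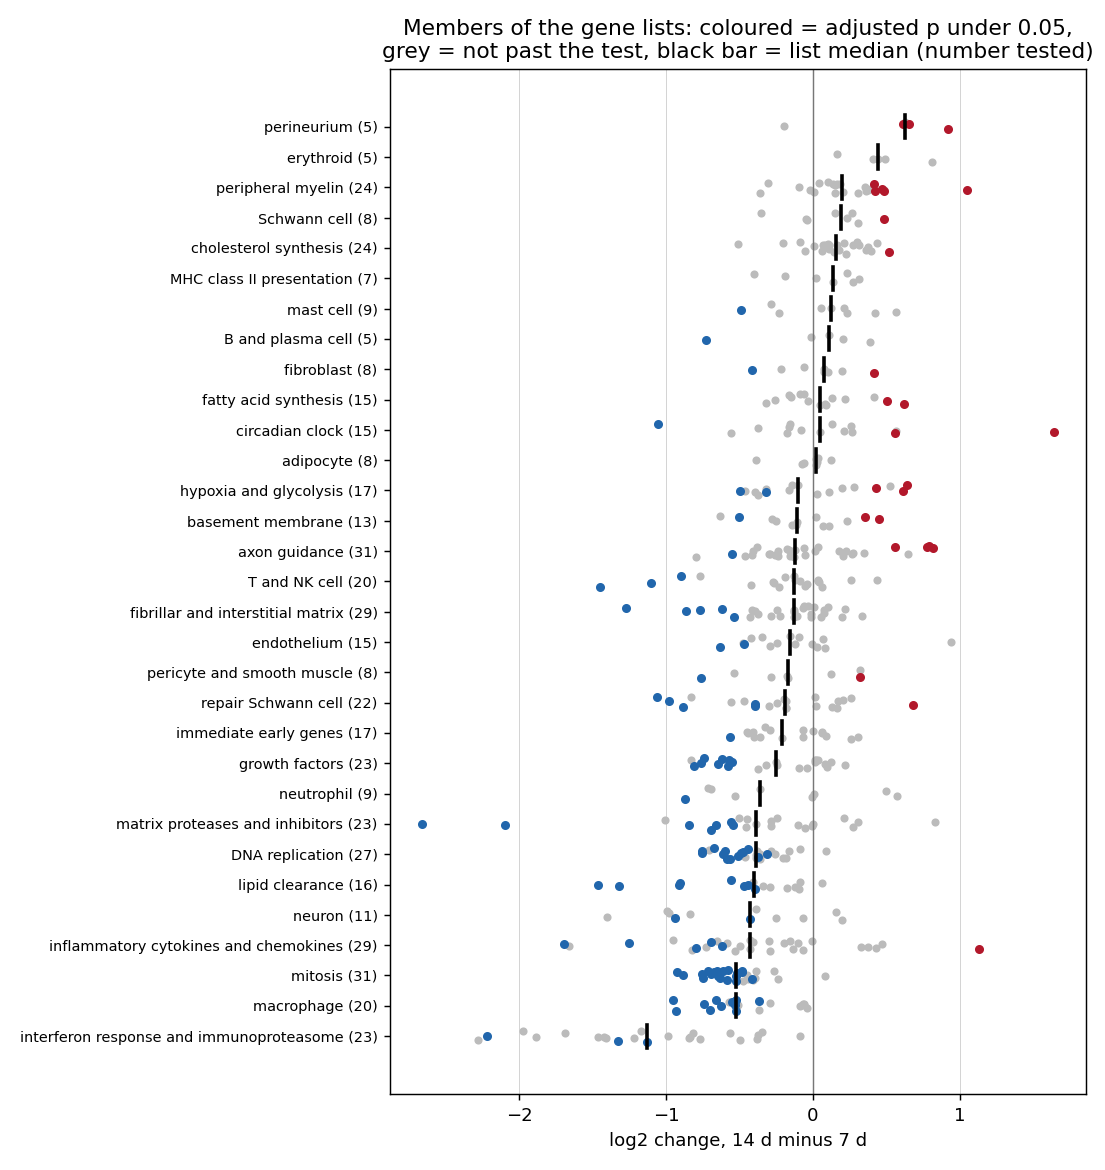
Changes of the members of each gene list between 7 d and 14 d in SN, on the x axis as log2 at 14 d minus log2 at 7 d, with 1 point a gene, blue or red where it fell or rose and grey where it did not pass the test, and a black bar at the median of the list; skeletal muscle is left out. The interferon list has the lowest median (-1.13) with 3 blue points, the mitosis list lies at -0.52 with 21, and the perineurium list lies highest at 0.63 with 3 red points.

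The same days were compared in the DRG, to show where the nerve differed from the ganglia that hold its sensory cell bodies. By the interaction of tissue and day, fitted over all 30 arrays, 838 of 33769 probes changed differently between the tissues, which is 2.48%, 327 with the higher change in SN and 511 with the lower. This balance turned over with the scaling, to 604 higher and 404 lower with quantile normalization, 613 and 414 with the authors' log2 matrix and 464 and 383 with normexp and quantile normalization. The count was 294 without the second SN array of 14 d, 3001 without the third, 1698 without the first DRG array of 7 d, 568 or 740 without the first SN or DRG array of 14 d and 306 to 457 without any 1 of the other 7 arrays of these days. It was 236 with slide as a random block, 129 higher and 107 lower. Wif1 fell in SN and was -0.80 at 7 d and -0.75 at 14 d in the DRG, a difference of changes of -1.93 ± 0.21 (adjusted p = 1.7e-05). For Egfl6 the difference was 3.01 ± 0.37 (adjusted p = 8.4e-05), for Kcnj13 2.24 ± 0.24 (adjusted p = 1.8e-05), and for Cd8a -2.12 ± 0.34 (adjusted p = 0.0016). Mmp13 was -1.67 at 7 d and -1.59 at 14 d in the DRG, and its difference of changes, -2.74 ± 0.93, had an adjusted p of 0.11. The median change of the mitosis list in the DRG was -0.0072 and that of the interferon list -0.90.

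**Figure D5:**
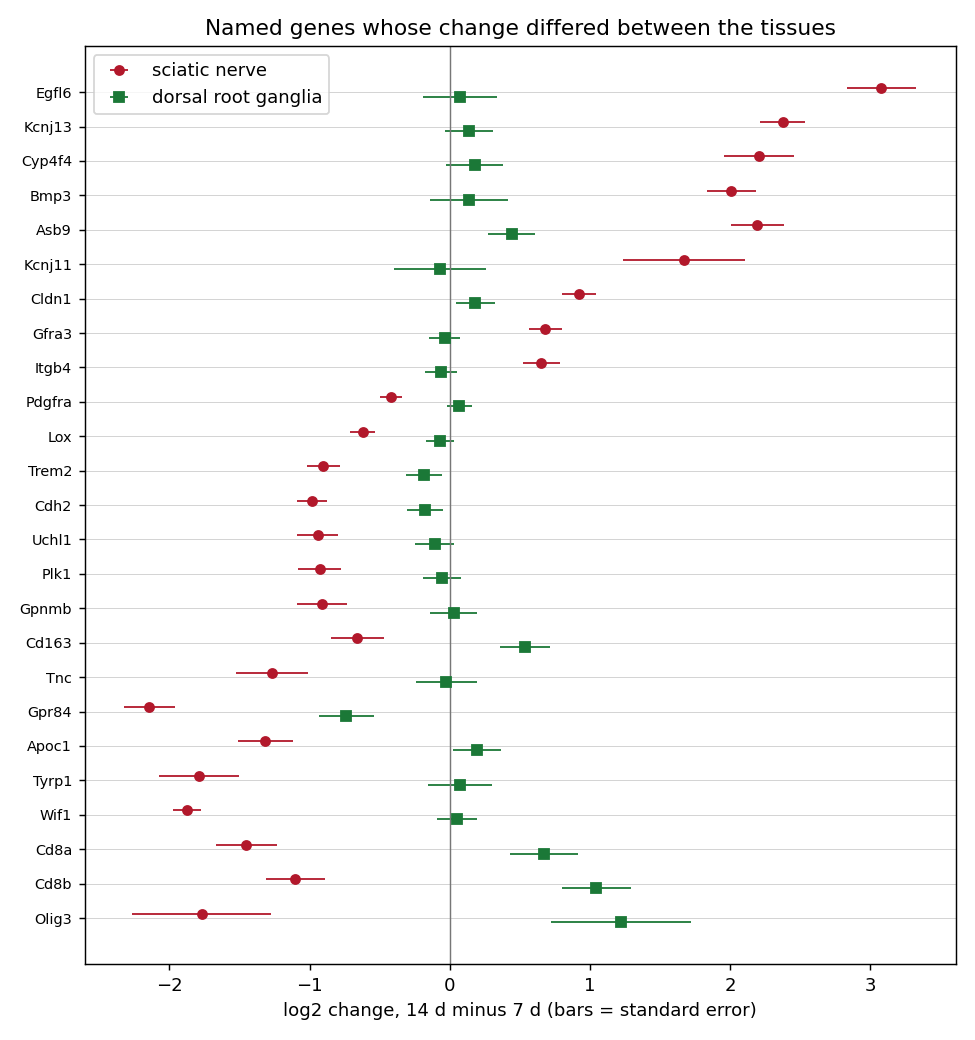
Changes between 7 d and 14 d of the 25 named genes whose change differed between the tissues, on the x axis as log2 at 14 d minus log2 at 7 d, with circles for SN, squares for the DRG, bars for the standard error and 1 row a gene. Egfl6 lies at 3.08 in SN and 0.071 in the DRG and Wif1 at -1.88 and 0.052.

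Of the 44 tested genes that the study's text names, 5 rose and 12 fell, and since the study chose them on these arrays this count is not independent evidence of a direction. Of the 44, 1 rose and 4 fell with slide as a random block, and with scan date as a block limma put none past the test, with 10 at an unadjusted p below 0.05. Those not described above include Kng1, kininogen 1, a precursor of bradykinin, which fell by 1.58 ± 0.24 (adjusted p = 0.0027), Olr1, a receptor for oxidised lipoprotein, which fell by 1.30 ± 0.20 (adjusted p = 0.0026), Lbp, the lipopolysaccharide-binding protein, which fell by 1.27 ± 0.22 (adjusted p = 0.0045), and Itgal, an integrin chain of leukocytes, which fell by 0.83 ± 0.19 (adjusted p = 0.018). Kng1 read -2.61, -2.90 and -2.37 at 7 d and -4.28, -4.23 and -4.12 at 14 d, with -8.43 ± 0.13 at 0 d, and was lower on every 14 d array than on any 7 d array.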

How the data were processed

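Gene expression was measured on 1-colour Agilent rat arrays. Per the file headers, the deposited intensity values are Feature Extraction processed signals, background-subtracted and spatially detrended within each array and not normalized between arrays. The authors also deposited a log2 matrix, used as an alternative, whose columns share a median of 7.757 and correlate with log2 of the scanner values at r = 0.993 or more. Its exact scaling is not given in the sources used here. The labels name the mirVana kit for RNA extraction and the study's methods Trizol. Log2 intensity minus each array's 75th percentile was averaged over spots of a probe, control spots and outlier flags were left out, and a probe was tested where every SN array of 7 d, or every one of 14 d, had it well above background. The 15 SN arrays entered limma 3.58.1 (lmFit and eBayes, R 4.3.3) with day as the group, and tissue differences used all 30 arrays. P-values were Benjamini-Hochberg adjusted over all probes tested. They measure the spread between these arrays. The fit was tested on simulated data first. Alternatives were normexp with quantile normalization (offset 50), quantile normalization alone, other filters and array sets, blocks for slide, scan date and replicate number, the study's unadjusted t-test with a 2-fold limit, and leaving out each array.

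Gene symbols came from RefSeq by accession or synonym, which gave 13534 of 23419 accessions on the arrays a match, and otherwise from the files. Of 41012 non-control probes 21498 had a symbol. A gene was represented by its probe with the highest mean over the SN arrays. Of the named genes past the test 34 had a further tested probe, and for 3 (Acaca, Btnl8 and Flt1) it had the opposite sign. Named genes were the 15 largest rises and falls among called genes above background on all 6 arrays with non-overlapping groups, up to 5 past-test members and the first 3 members of each of 33 lists, and genes in the study's text. Some genes that these rules name are not reported here. The comparison, lists and rules were chosen with earlier results of these data known.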

Additional observations from a re-analysis of the deposited data

Results flagged for a closer look

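The change between 7 d and 14 d differed between SN and the DRG, by the interaction test, for 838 probes, and 25 of the named genes were among them. The value beside each gene is the change in SN minus the change in the DRG on the log2 scale. It was positive for Asb9 (1.75), Bmp3 (1.87), Cldn1 (0.74), Cyp4f4 (2.03), Egfl6 (3.01), Gfra3 (0.72), Itgb4 (0.72), Kcnj11 (1.74) and Kcnj13 (2.24). It was negative for Apoc1 (-1.51), Cd163 (-1.19), Cd8a (-2.12), Cd8b (-2.15), Cdh2 (-0.80), Gpnmb (-0.94), Gpr84 (-1.40), Lox (-0.55), Olig3 (-2.99), Pdgfra (-0.49), Plk1 (-0.87), Tnc (-1.25), Trem2 (-0.72), Tyrp1 (-1.86), Uchl1 (-0.83) and Wif1 (-1.93). Dixon's test for a single outlying value was not run, since the 3 arrays of each tissue and day are fewer than the 4 it was set for.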

How the results depend on the processing

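Day and scan date coincide within SN, the third SN array of 14 d differs from its group, and the number of arrays limits precision, so small changes may go undetected. The main counts were 516 probes called, 4158 past the test and 838 with a different change in the tissues. Called probes numbered 165 with normexp and quantile normalization, 227 with slide as a random block, 113 with scan date as a block over 30 arrays, 103 with the methods' t-test after Benjamini-Hochberg adjustment and 152 with slide as a block over 30 arrays, and probes past the test 2533 on the 6 SN arrays alone, 887 with the random block, 165 with scan date, 8678 with the methods' t-test unadjusted, 529 after adjustment and 223 with the slide block. The share of higher calls was 43% with normexp, 58.4% with quantile normalization and 66.0% with the adjusted t-test, against 53.9%. Leaving out 1 array gave 294 to 1053 called, 1655 to 5038 past, a share of 24.9% to 57.3% and, for the tissue difference, 294 to 3001. That difference held for 486 probes on the 12 arrays of both days, 236 with the random block, 175 with scan date and 122 with the slide block. Under scan date as a block Olig3 (0.29), Or10al27 (-0.55), Or4k42b (-0.29) and Or7g23 (-0.66) turned sign, and under the slide block over 30 arrays Or10al27 (-0.22), Or4k42b (-0.32) and Or7g23 (-0.74). The other named genes that rose or fell kept their direction in every alternative, and of the 126, 74 to 108 passed the test with 1 array left out, 48 with slide as a random block, 10 with scan date and 14 with the slide block. The replicate numbers did not pair the samples (r = -0.11, -0.19 and -0.08 between deviations), and the fit with a replicate block called 473 probes, with 3165 past the test. The slide block was added after seeing the data. The cause of each difference was not tested.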

Other observations

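A small set of genes that glucocorticoid hormone is known to induce was looked at after Per1 had been seen to rise, and the set was chosen after its values had been seen. Tsc22d3, the leucine zipper protein GILZ, read 2.43, 2.09 and 2.17 at 7 d and 2.97, 3.36 and 3.64 at 14 d and rose by 1.09 ± 0.22 (adjusted p = 0.0097). Klf9, a transcription factor, read 1.21, 1.15 and 1.05 at 7 d and 1.90, 2.18 and 2.48 at 14 d and rose by 1.05 ± 0.24 (adjusted p = 0.016). Ddit4, an inhibitor of mTOR also called Redd1, rose by 1.54 ± 0.37 (adjusted p = 0.02). When slide was a random block, limma put none of these past the test, with an adjusted p of 0.061 for Tsc22d3, 0.088 for Klf9, 0.12 for Ddit4 and 0.19 for Per1. Both Tsc22d3 and Klf9 had higher levels in the uncut nerve, 5.33 ± 0.19 and 2.67 ± 0.56, than at either day. Others of the set did not pass the test, with changes of -0.15 ± 0.27 for Fkbp5, 0.016 ± 0.25 for Sgk1, 0.60 ± 0.62 for Zbtb16, -0.33 ± 0.22 for Dusp1, 0.27 ± 0.19 for Cebpd and 0.48 ± 0.25 for Errfi1. In the DRG, Tsc22d3 was 3.88 at 7 d and 4.46 at 14 d and Klf9 1.44 and 2.19, differences that did not pass the test (adjusted p = 0.08 and 0.058 in limma).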
